A study of Mus musculus with 20 samples.

Results

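The genes examined were 10 that write, remove or protect DNA methylation, taken by symbol: Dnmt1, Dnmt3a, Dnmt3b, Dnmt3l, Uhrf1, Tet1, Tet2, Tet3, Zfp57 and Tdg. Each symbol matched 1 Ensembl identifier among the 55573 genes of the count table, and all 10 were among the 33860 genes that any library held a read of. RNA-seq had been carried out on EB cultures made from 4 mouse iPSC lines, in which aggregates of pluripotent cells are left to differentiate. The lines WT#1-4 and WT#20D-17 were labelled wild type, and Nox4-/- #5-8 and Nox4-/- #5-23 were labelled Nox4-/-, the knockout of a NADPH oxidase that makes reactive oxygen species. Each line was sampled once on days 0, 3, 5, 7 and 14, which gave 20 libraries. The sample titles give 14 as the last day and the culture text of the labels gives 10, and the day of the titles was used. By the study's methods, its iPSC lines came from embryonic fibroblasts transduced with viruses for Oct4, Sox2, Klf4 and c-Myc. They were selected with puromycin and picked as single colonies. They were kept on fibroblast feeder cells with LIF, a cytokine that holds cells in the undifferentiated state. Each line is thus taken as 1 clone, and a difference between lines cannot be told apart from a difference between clones. The study's text describes 3 of the lines and does not mention WT#20D-17, so it does not say how that line was made.

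DNA methylation is set by enzymes of the Dnmt family, which add a methyl group to cytosine in CpG dinucleotides. Dnmt1 copies the pattern onto the new strand after replication, and Uhrf1 guides it there by binding CpG sites that are methylated on 1 strand. Dnmt3a and Dnmt3b write new methylation, with Dnmt3l as a cofactor that has no catalytic activity of its own. The Tet enzymes oxidise methylated cytosine, Tdg cuts out the later oxidised bases so that repair can put back plain cytosine, and Zfp57 is a KRAB zinc finger protein that keeps methylation at imprinted regions in early embryos and ES cells. Mouse pluripotent cells are known for high levels of Dnmt3b, Dnmt3l and Tet1.

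The promoters of 5 members are printed here as a description, and no result below uses them. Each sequence is 1 RefSeq window of GRCm38.p6 from 250 bases before to 50 bases after a start, read 5′ to 3′ on the strand of the gene. Capitals in the Dnmt1 sequence (chr9:20952574-20952873, minus strand) and the Uhrf1 sequence (chr17:56304063-56304362, plus strand), the maintenance pair that fell together over the days, mark the words TTTGGCGC, TTTCGCGC, TTTCCCGC and TTTGCCGC on either strand, which E2F factors of the cell cycle are known to bind.

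Dnmt1: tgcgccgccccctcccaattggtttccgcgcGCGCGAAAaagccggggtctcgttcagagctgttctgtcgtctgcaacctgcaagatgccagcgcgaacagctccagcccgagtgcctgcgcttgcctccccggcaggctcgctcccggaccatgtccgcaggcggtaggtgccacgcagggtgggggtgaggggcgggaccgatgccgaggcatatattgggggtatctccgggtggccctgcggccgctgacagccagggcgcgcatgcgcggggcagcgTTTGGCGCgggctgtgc

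Uhrf1: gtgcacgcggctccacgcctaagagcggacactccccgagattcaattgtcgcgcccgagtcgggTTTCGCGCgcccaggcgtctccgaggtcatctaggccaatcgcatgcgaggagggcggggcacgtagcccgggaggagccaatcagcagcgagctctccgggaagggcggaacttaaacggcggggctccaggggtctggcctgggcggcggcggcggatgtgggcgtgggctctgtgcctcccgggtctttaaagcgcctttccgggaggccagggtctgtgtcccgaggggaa

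In the sequences of Dnmt3b (chr2:153649199-153649498, plus strand) and Dnmt3l (chr10:78042037-78042336, plus strand), which differed most between the lines, and of Zfp57 (chr17:37000913-37001212, plus strand), which was higher in the Nox4-/- lines, capitals mark CpG dinucleotides.

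Dnmt3b: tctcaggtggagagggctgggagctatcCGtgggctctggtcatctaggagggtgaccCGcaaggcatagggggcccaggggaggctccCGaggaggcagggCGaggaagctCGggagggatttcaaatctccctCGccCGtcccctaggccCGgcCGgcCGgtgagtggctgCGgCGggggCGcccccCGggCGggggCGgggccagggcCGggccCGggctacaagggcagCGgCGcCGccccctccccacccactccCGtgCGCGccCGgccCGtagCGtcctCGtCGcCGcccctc

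Dnmt3l: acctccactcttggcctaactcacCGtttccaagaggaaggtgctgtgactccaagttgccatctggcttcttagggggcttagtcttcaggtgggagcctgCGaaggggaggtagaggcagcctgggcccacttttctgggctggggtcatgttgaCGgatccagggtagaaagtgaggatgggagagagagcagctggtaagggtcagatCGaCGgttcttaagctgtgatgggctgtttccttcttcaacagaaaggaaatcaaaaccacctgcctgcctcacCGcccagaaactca

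Zfp57: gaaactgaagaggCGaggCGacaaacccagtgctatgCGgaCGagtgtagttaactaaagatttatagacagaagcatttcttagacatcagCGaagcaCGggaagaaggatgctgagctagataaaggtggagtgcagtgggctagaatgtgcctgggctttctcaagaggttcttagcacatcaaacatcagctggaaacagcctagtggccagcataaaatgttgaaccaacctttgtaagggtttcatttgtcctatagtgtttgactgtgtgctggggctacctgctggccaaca

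All 10 members had a window, with 19 windows in all because a gene can have several starts. The E2F words occurred in 1 of the 3 Dnmt1 windows (2 matches), in 1 of the 2 Uhrf1 windows (1 match) and in no other member window, and 2.26% of 32851 windows of the same length over all genes held at least 1. The Dnmt3b window held 30 CpG dinucleotides, the Dnmt3l window 6 and the Zfp57 window 6, against a median of 7 over all windows. The other windows of Dnmt3l held 4 and 3, and those of Zfp57 9 and 4. The Dnmt1 and Uhrf1 windows printed are the only ones of these genes that hold a match. A match is a string of letters and no measured site, and the libraries report neither the start used nor the methylation of any promoter. Any part of the E2F words in the course of these genes was not tested.

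The lines were examined for library quality and for markers before the members. Total counts per library were between 20294968 and 27708023 (median 23878854), so that 3 counts, the smallest number taken as detected, stood for 0.109 to 0.157 CPM. CPM are counts scaled by the TMM-adjusted library size. Nox4 had 3 to 22 counts in the libraries of WT#1-4, 2.62 to 9.01 CPM in those of WT#20D-17 and at most 2 counts in those of the 2 Nox4-/- lines. Zfp42, a marker of naive pluripotent cells, had 0 counts in all 15 libraries of WT#1-4 and the Nox4-/- lines, and Nanog was at most 1.03 CPM there. In WT#20D-17, on day 0, Zfp42 was 41.6 CPM and Nanog 383 CPM, and by day 14 they were 11.9 and 8.40 CPM. Pou5f1 (Oct4) was between 1278 and 5760 CPM in the other 3 lines on every day, and reads of the viral and the endogenous Oct4 cannot be told apart in gene counts. The summed level of 7 fibroblast markers ran from 22.8 CPM on day 0 to 2993 CPM on day 14 in WT#20D-17, and from 5.00 to 111 CPM over all libraries of the other lines. WT#20D-17 thus stood apart from the other lines, and WT#1-4 and the Nox4-/- lines lacked Zfp42 and held little Nanog. Not every pluripotency marker was low in these lines, as Pou5f1 was high and Sox2, given below, was higher in the Nox4-/- lines than in WT#1-4. Both genes were also carried by the viruses. The study reports that these lines stained for Oct4 and Sox2 and had alkaline phosphatase activity. Where both were computed, results that rest on WT#20D-17 are given with and without it.

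On day 0, the order of levels per kilobase of exon, as means over the 4 lines, was Uhrf1 at 83.3 ± 18.4 CPM per kb (SD, n = 4), Dnmt1 at 57.4 ± 20.9, Zfp57 at 44.3 ± 19.0, Dnmt3b at 37.5 ± 69.7, Tdg at 30.6 ± 14.9, Dnmt3l at 11.4 ± 22.8, Dnmt3a at 9.51 ± 10.3, Tet3 at 6.41 ± 3.39, Tet1 at 4.85 ± 7.34 and Tet2 at 3.81 ± 1.46. Uhrf1 and Dnmt1 differed by more than the SD of either, and every other pair of neighbours differed by less than the larger SD of the pair. The places of Dnmt3b, Dnmt3l and Tet1 rest on WT#20D-17, at 142, 45.7 and 15.9 CPM per kb on day 0. In the other lines they were at 2.39 to 2.92, 0 to 0.0254 and 0.961 to 1.46 CPM per kb that day. In each of those lines Dnmt3b was below Dnmt3a (4.09 to 4.73), Tet2 (3.64 to 5.01) and Tet3 (5.82 to 9.69), and Dnmt3a was below Tet3. On day 14 Zfp57 was first, at 47.0 ± 38.4 CPM per kb, before Uhrf1 at 19.3 ± 6.81 and Dnmt1 at 15.98 ± 5.07. The plot of the members by line and day shows members that fell in all lines, members whose levels in WT#20D-17 lay apart from the other lines, and Zfp57, which was higher in the 2 Nox4-/- lines.

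**Figure D1:**
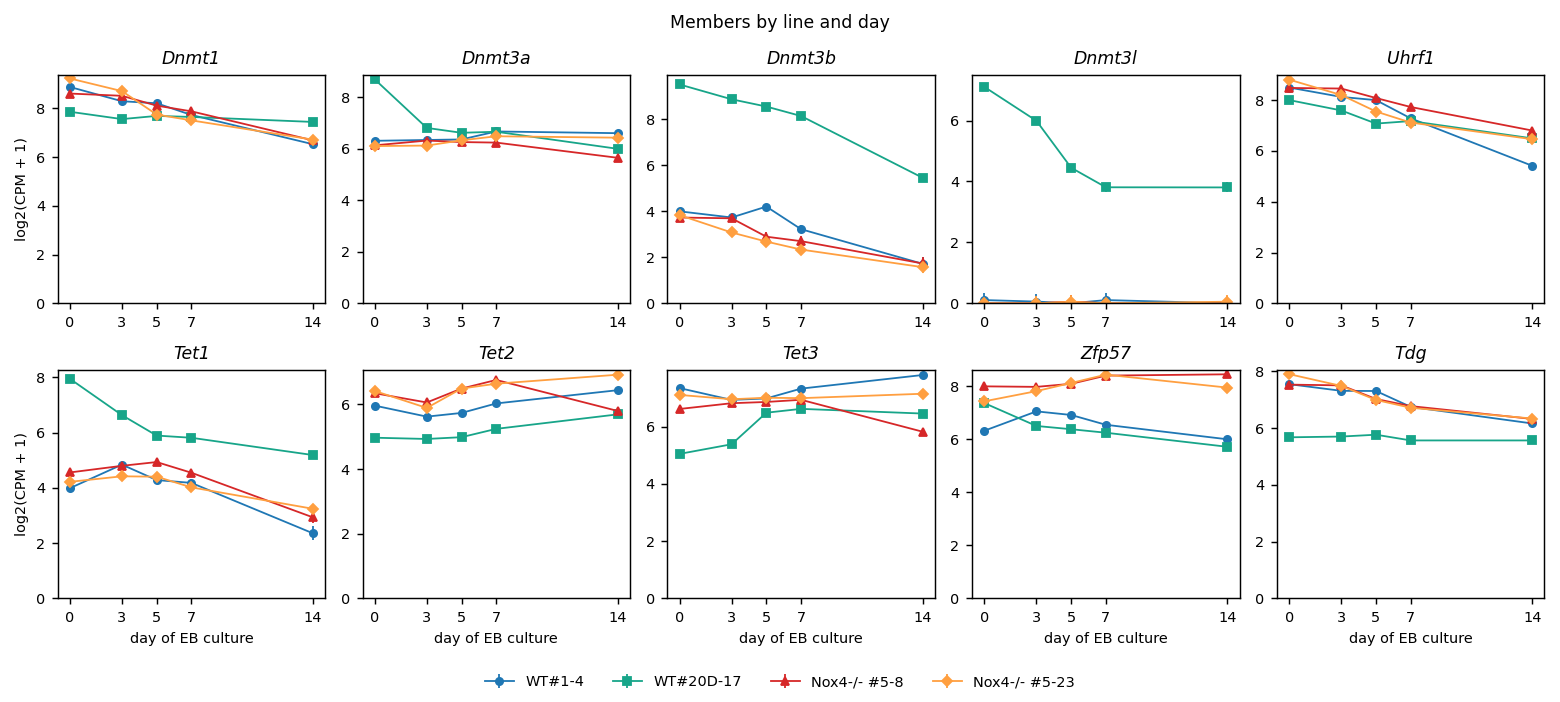
Level of each of the 10 members, as log2 of the CPM plus 1, against the day of EB culture. Each line of points is 1 iPSC line with 1 library per day, and the bars are 95% Wilson intervals of the count. Dnmt1 and Uhrf1 are lower on day 14 than on day 0 in all 4 lines, Dnmt3b and Dnmt3l are highest in WT#20D-17, and Zfp57 is highest in the 2 Nox4-/- lines.

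The 2 maintenance genes, Dnmt1 and Uhrf1, fell over the days. Dnmt1 (chromosome 9 from 20907209 to 20959888, minus strand, GRCm38) was 471, 313, 296, 212 and 91.5 CPM on days 0, 3, 5, 7 and 14 in WT#1-4, 390.0, 366, 276, 235 and 102 CPM in Nox4-/- #5-8, and 599.8, 418, 214, 181 and 104 CPM in Nox4-/- #5-23. In the line WT#20D-17 the values were 232, 188, 206, 199.9 and 173 CPM. Every library of day 14 was below every library of day 0, and the fall was 5.15-fold, 3.82-fold and 5.75-fold in the first 3 lines and 1.34-fold in WT#20D-17.

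Uhrf1 (chromosome 17 from 56303321 to 56323486, plus strand) was 360.1, 278, 255, 155 and 41.6 CPM in WT#1-4, 356, 350.3, 270.2, 211 and 111 CPM in Nox4-/- #5-8, 447, 293, 187, 138 and 87.1 CPM in Nox4-/- #5-23, and 255, 192, 134, 144 and 89.2 CPM in WT#20D-17. Here too the 4 libraries of day 14 were all below the 4 of day 0, and WT#1-4 reached the lowest value. Dnmt1 and Uhrf1 were the only members without an overlap between these days, and among 16516 genes with a mean of 10 or more counts 10.1% were lower on day 14 without an overlap. In 18 of 20 libraries the Uhrf1 value had decimals, as RSEM gives where reads fit more than 1 gene.

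Whether a member changed over the days was tested with edgeR's quasi-likelihood test in all 20 libraries with the line as a term, so that the 4 lines were the replicates of a day. The test was joint over the 4 days after day 0, and its FDR is given here. Log2 fold changes and SE beside it are of day 14 over day 0. The same holds below for list genes over the days and for fits that leave out a line. At an FDR (Benjamini-Hochberg) under 0.01, 5 of the 10 members changed, and 17.3% of the 18474 genes tested did (9.07% higher and 8.18% lower). Uhrf1 fell from day 0 to day 14 by a log2 fold change of -2.11 (SE 0.242, FDR 9.76e-05) and Dnmt1 by -1.78 (SE 0.292, FDR 0.00216). Dnmt3b (-2.99, SE 0.294, FDR 3.60e-05), Tet1 (-1.97, SE 0.361, FDR 0.00499) and Tdg (-1.07, SE 0.198, FDR 0.00322) fell too. Tet2 (0.36), Tet3 (0.32), Zfp57 (-0.30), Dnmt3a (-0.78) and Dnmt3l (-2.87, FDR 0.0120) did not pass. The median log2 fold change was -1.42 over the members and 0.04 over all genes tested.

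The calls of Dnmt1, Tet1 and Tdg needed all of WT#1-4, Nox4-/- #5-8 and Nox4-/- #5-23. Without WT#1-4 their FDR was 0.0521, 0.0382 and 0.0578, without Nox4-/- #5-8 it was 0.0444, 0.0525 and 0.0664, and without Nox4-/- #5-23 it was 0.0536, 0.0343 and 0.0792, while the direction did not change. Uhrf1 and Dnmt3b passed without any 1 of the 4 lines. Without WT#20D-17 the same 5 members passed, and 23.4% of 17021 genes did.

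Single days were also compared in the same fit, each comparison with its own FDR. Set against day 0, 0 members passed on days 3 and 5, where 0.162% of genes (0.157% higher, 0.00541% lower) and 2.41% of genes (2.01% higher, 0.401% lower) did. On day 7 Dnmt3b (log2 fold change -1.32, FDR 0.00253), Uhrf1 (-1.17, FDR 0.00238) and Tdg (-0.78, FDR 0.00912) were lower, where 11.4% of genes passed, 6.21% higher and 5.18% lower. On day 14, 6 members were lower, the 5 above and Dnmt3l, and 0 were higher, where 27.8% of genes passed, 14.3% higher and 13.5% lower. Between neighbouring days from day 3 on, 0 members passed, where 0% of genes did for day 5 over day 3 and day 7 over day 5, and 0.0108% (0.00541% in each direction) for day 14 over day 7. For day 14 over day 7 the median log2 fold change was -0.30 over the members.

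**Figure D2:**
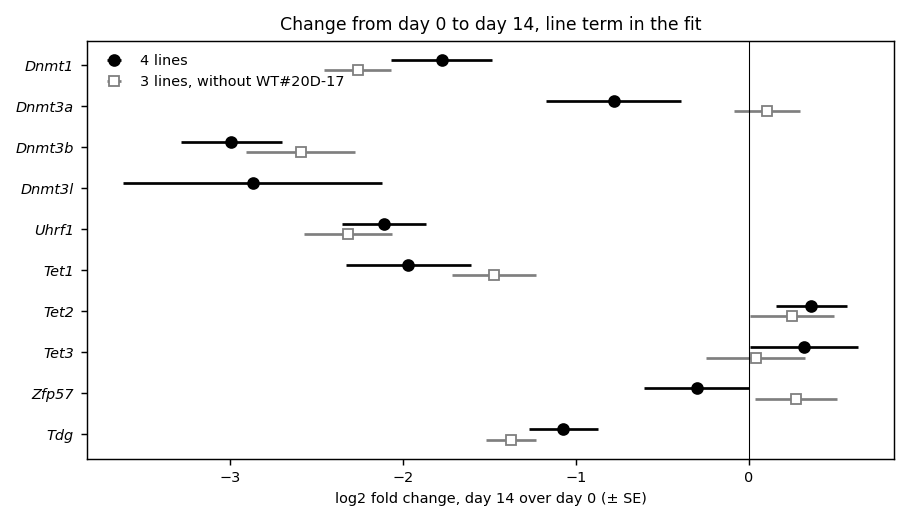
Log2 fold change of each member from day 0 to day 14, with its standard error, from the fit with a term for the line. Filled circles are the 4 lines and open squares the 3 lines without WT#20D-17, where Dnmt3l had too few counts to be fitted. Dnmt1, Dnmt3b, Uhrf1, Tet1 and Tdg are below 0 in both, and Dnmt3a and Zfp57 change sign.

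The fall of Dnmt1 and Uhrf1 went along with that of genes for DNA replication. All 18 genes of a replication list (the Mcm helicase, origin factors, polymerases, nucleotide synthesis and the chromatin assembly factor) fell over the days, against 8.18% of all genes, with a median log2 fold change of -2.24, and 17 of the 18 passed without WT#20D-17. Pole, the catalytic subunit of the leading strand polymerase, changed by -2.63 (SE 0.265, FDR 3.67e-05), Tyms, thymidylate synthase, by -2.59 (FDR 0.000703) and Mcm5 by -2.54 (FDR 0.000294). The summed level of the list fell 7.43-fold in WT#1-4, 3.41-fold in Nox4-/- #5-8, 5.75-fold in Nox4-/- #5-23 and 3.03-fold in WT#20D-17 from day 0 to day 14. Over the 20 libraries, which share lines and days, the correlation of log2 levels with the summed replication list was 0.868 for Dnmt1 and 0.917 for Uhrf1. Fewer dividing cells and less RNA per cell cannot be told apart in bulk libraries. In WT#20D-17 the list fell while Dnmt1 moved by 1.34-fold.

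**Figure D3:**
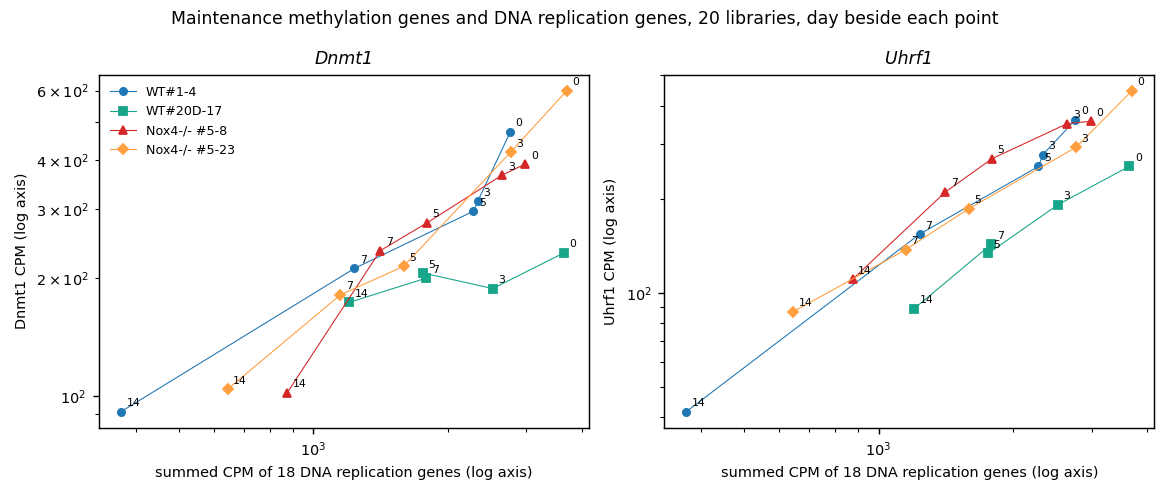
Level of Dnmt1 and of Uhrf1 in CPM against the summed CPM of 18 DNA replication genes, both on log axes, for 20 libraries with the day beside each point. Points of 1 line are joined in order of day. Day 14 lies at the lower left in all 4 lines, and Dnmt1 in WT#20D-17 covers the narrowest range, from 173 to 232 CPM.

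Genes that work with the maintenance and de novo enzymes were described by a list of 15, of which 14 were tested. From day 0 to day 14, 9 were lower and 1 was higher, against 13.5% and 14.3% of all genes, and 6 passed the test over the days, all lower, against 8.18%. Hells, a helicase needed for methylation of repeats, was 130, 408, 168 and 183 CPM on day 0 and 11.5, 56.0, 19.8 and 28.5 CPM on day 14 in WT#1-4, WT#20D-17, Nox4-/- #5-8 and Nox4-/- #5-23 (log2 fold change -2.96, FDR 3.36e-05). Its activator Cdca7 (-2.68, FDR 2.44e-05) and the histone methyltransferase Suv39h2 (-1.87, FDR 6.36e-05) fell as well. Dnmt3c, a methyltransferase of the male germline, had at most 3 counts in any library.

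Of the de novo enzymes, Dnmt3a had its highest value in the day 0 library of WT#20D-17. In WT#1-4 it was 78.7, 80.4, 81.6, 101 and 96.8 CPM on the 5 days, in Nox4-/- #5-8 69.5, 79.2, 76.0, 74.9 and 49.4 CPM, in Nox4-/- #5-23 68.1, 69.1, 79.7, 89.1 and 85.6 CPM, and in WT#20D-17 416, 112, 97.9, 101 and 63.2 CPM. The libraries of WT#20D-17 on days 0 and 3 lay above all libraries of the other lines, on day 0 5.29-fold above the highest of that day. Without that line the log2 fold change from day 0 to day 14 was 0.11 (SE 0.191, FDR 0.731).

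Dnmt3b (chromosome 2 from 153649450 to 153687730, plus strand) fell in every line but at very different levels. It was 14.9, 12.2, 17.4, 8.30 and 2.28 CPM in WT#1-4, 12.2, 11.9, 6.42, 5.49 and 2.32 CPM in Nox4-/- #5-8, 13.2, 7.42, 5.41, 4.04 and 1.97 CPM in Nox4-/- #5-23, and 725, 464, 372, 279.7 and 42.8 CPM in WT#20D-17. Each WT#20D-17 library lay above all 15 others, as it did for Dnmt3l and Tet1 (10.3% of genes with a mean of 10 or more counts did), and the fall from day 0 to day 14 was 16.9-fold there and 5.27-fold to 6.70-fold in the other lines. On the same day WT#20D-17 was 18.4-fold to 48.6-fold above the highest of the others. The antisense gene Dnmt3bos had at most 25 counts.

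Dnmt3l (chromosome 10 from 78041947 to 78063622, plus strand) was detected in WT#20D-17, at 136, 62.5, 20.8, 13.01 and 12.96 CPM on the 5 days. In the 15 libraries of the other lines it had 0 to 2 counts, with 0 in 9 of them and 8 counts in all, which is under the floor of 3 counts in each. Against the highest floor of the same day, WT#20D-17 was at least 1139-fold higher on day 0 and at least 87.2-fold higher on day 14. Over the days Dnmt3l fell 10.5-fold in that line, and the fall from day 0 to day 14 in the fit over 4 lines (FDR 0.00573) rests on it alone, as the other lines had too few counts. Aire, on the opposite strand of the same locus, was 4.67 to 18.3 CPM in WT#20D-17 and 0 to 9.81 CPM in the other lines. Libraries with many Aire reads held almost no Dnmt3l reads in the other lines, with 221 counts of Aire and 0 of Dnmt3l in Nox4-/- #5-23 on day 7, and 148 and 1 in Nox4-/- #5-8 on day 5. In WT#20D-17 on day 0 there were 233 counts of Aire and 3329 of Dnmt3l.

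Between the de novo enzymes the balance differed between the lines. Per kilobase, the Dnmt3b level was 2.21 to 13.5 times that of Dnmt3a in WT#20D-17, and 0.0749 to 0.694 times that of Dnmt3a in the other 3 lines. Those ranges did not overlap. Per kilobase, Uhrf1 was 0.789 to 1.91 times Dnmt1 over all lines, with medians of 1.24 to 1.66, and here the lines overlapped.

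The Tet enzymes did not share a course. Tet1 (chromosome 10 from 62804570 to 62908996, minus strand) was 245, 97.9, 58.3, 55.1 and 35.4 CPM in WT#20D-17, 14.9, 27.6, 18.4, 17.1 and 4.12 CPM in WT#1-4, 22.5, 26.8, 29.5, 22.3 and 6.63 CPM in Nox4-/- #5-8, and 17.6, 20.3, 20.2, 15.2 and 8.46 CPM in Nox4-/- #5-23. The lowest WT#20D-17 library was above the highest of the others, and in every line day 14 was the lowest.

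Tet2 ran the other way between the wild type lines. It was 30.4, 29.5, 30.7, 36.9 and 50.7 CPM in WT#20D-17, 61.5, 48.3, 52.4, 64.4 and 85.9 CPM in WT#1-4, 80.5, 65.8, 89.0, 107 and 54.7 CPM in Nox4-/- #5-8, and 84.5, 58.4, 89.0, 98.9 and 120.2 CPM in Nox4-/- #5-23. On each day WT#20D-17 was the lowest line, although over all days the lines overlapped.

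Tet3 was 32.1, 40.8, 88.7, 97.5 and 86.9 CPM in WT#20D-17, 162, 121, 126, 159.8 and 223 CPM in WT#1-4, 97.2, 112, 115, 122 and 55.6 CPM in Nox4-/- #5-8, and 137, 123, 128, 127 and 141 CPM in Nox4-/- #5-23. It was 2.71 times its day 0 level on day 14 in WT#20D-17 and 0.572 times in Nox4-/- #5-8. Per kilobase, Tet1 was 8.25, 2.59, 0.710, 0.610 and 0.440 times Tet3 on the 5 days in WT#20D-17, and 0.0200 to 0.276 times Tet3 in the libraries of the other lines. Tet1 was thus above Tet3 on days 0 and 3 of WT#20D-17 and below it in all other libraries.

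Tdg (chromosome 10 from 82629828 to 82650799, plus strand), the glycosylase, was 186, 158, 157, 106 and 70.6 CPM in WT#1-4, 184, 180.4, 129, 108 and 78.9 CPM in Nox4-/- #5-8 and 237, 178, 126, 104 and 79.7 CPM in Nox4-/- #5-23. Values in WT#20D-17 were 50.04, 51.0, 53.4, 46.3 and 46.3 CPM, below all other libraries (8.17% of genes with a mean of 10 or more counts were) and nearly level over the days. Its value had decimals in 19 libraries, as RSEM gives where reads fit more than 1 gene, and which genes shared them is not in the table. The processed pseudogene Tdg-ps had 7.24 to 9.28 CPM in WT#20D-17 and at most 0.200 CPM elsewhere. The sum of both was 53.5 to 62.7 CPM in WT#20D-17 and 70.6 to 238 CPM in the other lines, so that the lines did not overlap with the pseudogene added. The division of reads between near copies is uncertain.

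Other genes linked to demethylation, deamination and base excision repair were described by a list of 22, of which 21 were tested. Over the days 7 fell, 1 rose and 13 did not pass, where 8.18% of all genes fell and 9.07% rose. Ung, the uracil glycosylase, fell (log2 fold change -2.77, SE 0.233, FDR 5.29e-06), as did Cxxc4, a CpG binding protein (-3.08, FDR 0.00125), and Gadd45g, a stress protein linked to repair, rose (4.03, SE 0.498, FDR 0.000165). Of 8 readers of methylated CpG, 1 passed, against 17.3% of all genes, which was Zbtb4, and it rose (2.75, FDR 3.08e-05). On day 0 it was 37.3, 5.98, 18.5 and 15.3 CPM in WT#1-4, WT#20D-17, Nox4-/- #5-8 and Nox4-/- #5-23, and on day 14 it was 205, 25.8, 114 and 205 CPM. Of 19 genes that supply the methyl donor or alpha-ketoglutarate, 18 were tested and 9 fell, and 0 rose, against the same 8.18% and 9.07% of all genes. Mat2a, which makes S-adenosylmethionine, changed by -1.83 (FDR 5.29e-05), Shmt1 of folate metabolism by -2.59 (FDR 2.00e-05) and Gldc of glycine cleavage by -3.58 (FDR 0.000166).

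Whether the level differed between the lines was tested jointly over all lines in the same 20 libraries with the day as a term. The days of a line are not independent replicates of it. At an FDR under 0.01, 7 of the 10 members passed, all but Dnmt1 (FDR 0.607), Dnmt3a (0.0945) and Uhrf1 (0.0605), and 51.5% of all genes tested did (23.8% higher and 27.7% lower in the mean of the Nox4-/- lines). Between the 2 wild type lines 6 members differed, against 39.8% of genes (20.6% higher and 19.1% lower in WT#20D-17). Dnmt3b (log2 fold change of WT#20D-17 over WT#1-4 of 4.87, SE 0.273, FDR 6.51e-10) and Tet1 (2.49, SE 0.330, FDR 1.00e-05) were higher in WT#20D-17. Tet2 (-0.86, SE 0.184, FDR 0.000897), Tet3 (-1.30, SE 0.283, FDR 0.00109) and Tdg (-1.40, SE 0.178, FDR 6.60e-06) were lower. Dnmt3l is counted among the members past the threshold here and in each comparison with WT#20D-17, but it passed the filter on low counts only through that line and so had to differ, and its levels above are a description. Without WT#20D-17, 1 of the 9 members that could be tested differed between the lines, Zfp57 (FDR 7.63e-05), and 22.6% of genes did. The part of the markers that moved with WT#20D-17 in these differences was not tested.

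Between the 2 Nox4-/- lines 0 of 10 members differed, against 3.55% of genes (2% higher and 1.54% lower in Nox4-/- #5-23), and apart from Dnmt3l, which was under the floor in both, the largest log2 difference was that of Tet3 (0.40, SE 0.277). Against WT#1-4, only Zfp57 passed, in Nox4-/- #5-8 (log2 fold change 1.60, SE 0.274, FDR 0.000702) and in Nox4-/- #5-23 (1.40, SE 0.272, FDR 0.00145), where 8.02% (2.79% higher, 5.23% lower) and 11.4% of genes (4.76% higher, 6.61% lower) did. Against WT#20D-17, 6 members passed in Nox4-/- #5-8 (44.1% of genes) and 7 in Nox4-/- #5-23 (45% of genes), with Zfp57 higher in both (1.73 and 1.53). Comparisons with the same wild type line share its libraries.

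Zfp57 (chromosome 17 from 37001163 to 37010635, plus strand) was higher in both Nox4-/- lines than in both wild type lines. It was 79.2, 132, 120.1, 92.7 and 63.1 CPM on the 5 days in WT#1-4 and 164, 89.8, 82.4, 75.1 and 51.7 CPM in WT#20D-17. In Nox4-/- #5-8 it was 255, 251, 273, 338 and 349.7 CPM, and in Nox4-/- #5-23 172, 225, 279, 347 and 247 CPM. All 10 Nox4-/- libraries, from 172 to 349.7 CPM, lay above all 10 wild type libraries, from 51.7 to 164 CPM, but the closest libraries, both of day 0, differed by 1.05-fold. Among genes with a mean of 10 or more counts, 1.16% were higher in all Nox4-/- libraries without an overlap, and 2.44% when WT#1-4 alone was the wild type. On the same day, the mean of the Nox4-/- lines was 1.75, 2.15, 2.72, 4.08 and 5.19 times that of the wild type lines.

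**Figure D4:**
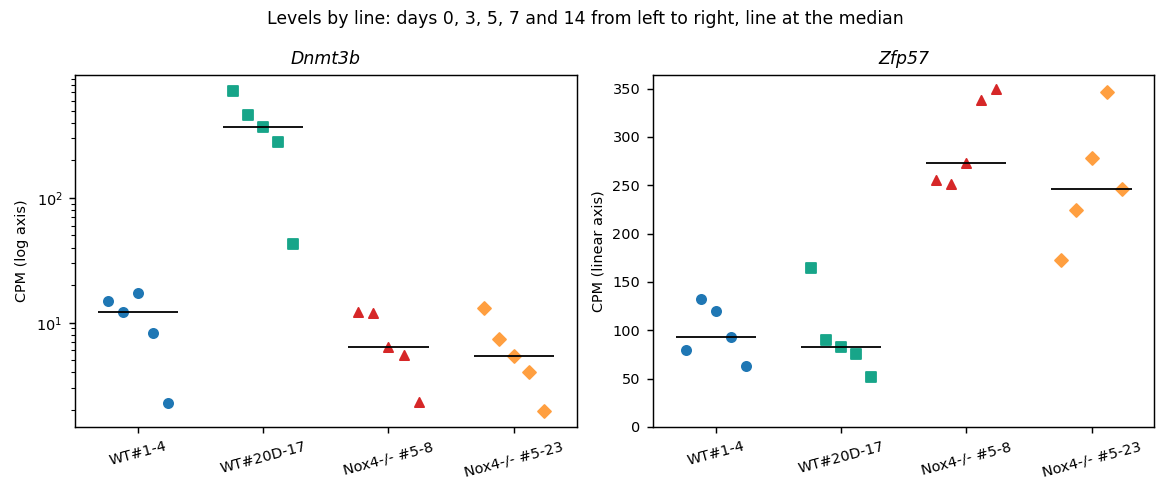
Level in CPM of Dnmt3b on a log axis and of Zfp57 on a linear axis, by line, with the libraries of days 0, 3, 5, 7 and 14 from left to right and a bar at the median of each line. Dnmt3b is at 42.8 CPM or more in WT#20D-17 alone, and Zfp57 is at 172 CPM or more in the 2 Nox4-/- lines alone.

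With all days pooled, edgeR's exact test of the 10 Nox4-/- libraries against the 5 of WT#1-4 gave 1 of 10 members with an FDR under 0.01, against 5.62% of 33860 genes (1.65% higher and 3.97% lower). It was Zfp57, with a log2 fold change of 1.49 (SE 0.205 from the quasi-likelihood fit, FDR 5.20e-09). The other 9 had log2 fold changes between -1.37 (Dnmt3l, under the floor) and 0.44 (Tet2), each with an FDR of at least 0.217. The median over the members was 0.06, and 0 over all genes. The days of a line are not independent replicates of it, so this test compared 1 line with 2 lines. Its FDR values, here and for other genes with days pooled, count each library as a replicate. Of 7 fibroblast markers 5 were lower in the Nox4-/- lines in the same test, with sums of 44.5 to 111 CPM in WT#1-4, 10.2 to 26.8 CPM in Nox4-/- #5-8 and 5.00 to 17.4 CPM in Nox4-/- #5-23, and 2 of 8 pluripotency markers passed. Sox2, also carried by a virus, was higher in the Nox4-/- lines (log2 fold change 3.27, FDR 5.74e-07), at 83.3 to 202 CPM against 1.04 to 33.6 CPM in WT#1-4, and Utf1 was lower, with at most 1 count against 5.24 to 8.35 CPM. The sum of the 8 on day 14, Pou5f1 included, was 1976 CPM in Nox4-/- #5-8 and 3816 CPM in Nox4-/- #5-23, and 1287 CPM in WT#1-4 and 97.2 CPM in WT#20D-17. Among the 8 markers 1 to 4 were at 0 in each library of WT#1-4 and the Nox4-/- lines. The part of either marker list in the Zfp57 difference was not tested. When WT#20D-17 was the wild type line instead, 8751 of the 33860 genes passed, and Zfp57 passed again. So did Dnmt3a (-1.09), Dnmt3b (-5.74), Dnmt3l, Tet1 (-2.38), Tet2 (1.25) and Tdg (1.51), so that the genotype result for these 6 depends on the wild type line. Dnmt3l was under the floor in both Nox4-/- lines and detected in WT#20D-17, and so had to differ.

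The line is the independent unit of the genotype. On counts summed over the days, 2 lines against 2, edgeR's quasi-likelihood test gave 0 of the 9 members tested and 0% of 20229 genes at an FDR under 0.01. At an unadjusted p under 0.05, 1 member and 1628 genes passed, and DESeq2 gave 2 members and 783 genes at an FDR under 0.01. Zfp57 had a log2 fold change of 1.51 (SE 0.195) with an FDR of 0.604 by the quasi-likelihood test and of 0.000935 by DESeq2, and the range over the alternatives was 0.000935 to 0.737. An exact permutation test over 4 lines has 6 arrangements and gave a two-sided p of 0.333 for Zfp57, the smallest that it can give. 

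Whether the courses differed between the genotypes was asked with an interaction term in edgeR's quasi-likelihood test. Of the members 0 of 10 passed, and 0.0104% of 19240 genes did. DESeq2 gave 0 members and 201 genes, and at an unadjusted p under 0.05 there were 1 member, Zfp57 (FDR 0.644), and 1391 genes.

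Of a list of 10 genes for imprint protection and repression by KRAB zinc finger proteins, which holds other such proteins beside corepressors, 9 were tested. Over the days 3 fell and 0 rose, against 8.18% and 9.07% of all genes, namely Trim28, the corepressor that KRAB proteins recruit (log2 fold change -1.40, SE 0.180, FDR 0.000131), Zfp568, a separate KRAB zinc finger protein (-1.36, FDR 0.000557), and the histone methyltransferase Setdb1 (-1.11, FDR 0.000191). Between the genotypes with days pooled, 1 was lower, against 3.97% of all genes, Atf7ip, a partner of Setdb1 (-0.72, FDR 0.00232), and Trim28 was 192 to 551 CPM in WT#1-4, 268 to 479 CPM in Nox4-/- #5-8 and 165 to 659 CPM in Nox4-/- #5-23. Dppa3, which guards maternal methylation in the zygote, had 0 counts in WT#1-4, at most 1 count in the Nox4-/- lines and 0.315 to 14.6 CPM in WT#20D-17.

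For each member the genes with the most similar level over the 20 libraries were sought among 14569 genes that averaged 1 CPM or more. The points share lines and days, so a high correlation of log2 levels is a description. Dnmt3l was under the floor in all 15 libraries of the other lines, so its correlations rest on the difference of WT#20D-17 from them. In each library of WT#20D-17, Dnmt3b and Tet1 were above and Tdg was below all other libraries. That difference enters their correlations too, and no correlation was computed without WT#20D-17. Dnmt3l was most like Rnf17 (r = 0.998), Ccnb1ip1 (0.997) and Grik3 (0.997), Dnmt3b like Shank3 (0.977), Tcf7 (0.972) and Carmil2 (0.968), and Tet1 like Zscan10 (0.968), Zranb3 (0.95) and Esco2 (0.945). Uhrf1 was most like Lmnb2 (0.983), Nup85 (0.978) and Pclaf (0.977), and Dnmt1 like Rbl1 (0.970), Mcmbp (0.958) and Eml4 (0.952). Zfp57 was most like Rec8 (0.95), Arhgap45 (0.935) and Exoc3l (0.930), and Tdg like AI506816 (0.971), CR974462.6 (0.966) and Eif3j1 (0.961). The best values were 0.960 for Tet3, with Ndst1, 0.936 for Tet2, with Arap2, and 0.913 for Dnmt3a, with Kirrel2. Between members the highest values were those of Dnmt3b with Dnmt3l (0.931), Dnmt1 with Uhrf1 (0.927) and Dnmt3b with Tet1 (0.898).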

How the data were processed

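Libraries of mRNA were made by the authors with a stranded kit and read in paired-end mode. Per the submitters' processing notes and the study's methods, reads were trimmed, mapped to GRCm38 (mm10) with STAR 2.6.0c and counted per gene with RSEM 1.3.1. The deposited values are these expected counts without normalization, for 55573 genes in 20 libraries, and whether RSEM used the strand is not given in the sources used here. RSEM divides reads that fit several genes, so genes with near copies are uncertain.

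Expected counts were rounded to whole numbers. Symbols, positions and exon lengths came from GENCODE M21 (GRCm38), in which 55480 identifiers were found, and promoter windows from RefSeq. With R 4.3.3 and edgeR 4.0.16, genotype was compared by the exact test over genes that any library held a read of, after TMM normalization. Day, line, the interaction of genotype and day, and genotype on counts summed per line were compared by the quasi-likelihood test. This came after edgeR's expression filter, with a Benjamini-Hochberg FDR under 0.01. Day, line and interaction were each tested jointly over all their terms, while fold changes are of single contrasts. Standard errors (SE) were derived as the absolute log2 fold change over the root of the F statistic of its contrast. For the exact test they came from a quasi-likelihood fit of the same libraries. DESeq2 1.42.0 was an alternative, and the closing section gives the effect of all alternatives. Total counts of 20294968 to 27708023 put 3 counts at 0.109 to 0.157 CPM. 95% Wilson intervals and floors cover counting error only, as reads carry no molecular identifiers. Replicates of a day are lines, and nothing says that libraries of a line were separate cultures, so p-values measure the spread between these libraries. Scripts were tested on simulated data.

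The labels give lines the same days, and the day pairs libraries of different lines. Deviations from the line means correlated with a median of 0.303 over 30 pairs of the same day (from -0.24 to 0.814), and of -0.10 over 120 pairs of other days. The members and lists were chosen with earlier results of these data known. All members are named, list genes are named if among the 3 largest changes past the threshold, and a few others were chosen after their values were seen.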

Additional observations from a re-analysis of the deposited data

Results flagged for a closer look

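In 1 of 37 courses of a member in a line, 1 library stood far from the other 4. Dnmt3a in WT#20D-17 was 416 CPM on day 0, and the other days of that line lay between 63.2 and 112 CPM. The gap to the nearest library was 0.863 of the whole range, over Dixon's critical value of 0.710 for 5 libraries. Chance alone passes that value in about 1 of 20 courses, and days of a course are not drawn from 1 level.

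From day 0 to day 14 Zfp57 fell in the 2 wild type lines and rose in the 2 Nox4-/- lines. The share of all genes with such a pattern was not counted, and each line is taken as 1 clone, with 1 library per day. On the scale of log2(CPM + 1), day 14 minus day 0 was -0.32 in WT#1-4 and -1.65 in WT#20D-17, and 0.45 in Nox4-/- #5-8 and 0.52 in Nox4-/- #5-23. The interaction of genotype and day did not pass for Zfp57 in edgeR's quasi-likelihood test (FDR 0.644).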

How the results depend on the processing

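Counts are of genes and members past an FDR of 0.01 unless stated. With days pooled, Zfp57 was the single member called under the quasi-likelihood test without day (1228 genes), DESeq2, the expression filter, an FDR under 0.001 (1221 genes) and without each day or Nox4-/- line (1114 to 1994 genes, lowest without day 7, with 1267 without day 5). When WT#20D-17 was the wild type line there were 7 members and 8751 genes, and with all 20 libraries 4 members and 4101 genes. In these 2 settings Tet1 (-2.38 and -1.60) and Tet3 (0.74 and 0.0258) changed sign, as did Dnmt1 without Nox4-/- #5-23 (-0.0210) and without day 3 (-0.0077), with a range of -0.0210 to 0.15 on leaving out a day or line. Adding the day as a replicate block to the quasi-likelihood test gave 1 member and 2724 genes. Over the days, the fit with no replicate block for the line gave 2 members and 644 genes, against 5 and 3188 with it, and Zfp57 changed sign (0.0782). DESeq2 gave 5114 genes with 5 members. Leaving out 1 line gave 2 to 5 members and 624 to 3978 genes, namely 2 and 1428 without WT#1-4, 3 and 1085 without Nox4-/- #5-8, and 2 and 624 without Nox4-/- #5-23. Without WT#20D-17, Dnmt3a (0.11, range -1.16 to 0.11) and Zfp57 (0.28, range -0.58 to 0.28) changed sign. Between lines, 6 to 8 members and 6892 to 9692 genes passed without 1 day, while without WT#20D-17, a setting chosen after the data had been seen, 1 member and 3843 genes passed and, for the Nox4-/- over the wild type lines, Tet1 (0.30, range -1.12 to 0.30) and Tet3 (-0.46, range -0.46 to 0.39) changed sign. Without the day as a replicate block, 7 members and 7071 genes passed. For the interaction, 0 members passed in any setting, with 2 genes in the reported fit, 0 with no replicate block, 201 by DESeq2, 11 without a filter and 0 to 666 (without WT#1-4) on leaving out a line. There Uhrf1 (-0.53 without WT#1-4 and -0.16 without Nox4-/- #5-8, range -0.53 to 0.98), Dnmt1 (0.0280, range -1.83 to 0.0280) and Dnmt3a (-0.43, range -0.43 to 2.68, both without WT#20D-17) changed sign. With the line as the unit, the exact test gave 124 genes with 0 members and DESeq2 783 genes with 2 members, Dnmt3l and Zfp57. The cause of these moves was not tested. The floor of 3 counts limits Dnmt3l in the 3 lines other than WT#20D-17. A call of Dnmt3l in any setting thus rests on WT#20D-17.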

Other observations

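Genes of the germline that promoter methylation is known to silence in other cells were described by a list of 15, of which 10 had enough counts for a fit. In each library of WT#1-4 and the Nox4-/- lines 8 to 12 of the 15 were at 0 counts, so that genes passed the filter on low counts largely through WT#20D-17, and their levels are given as a description. Sycp1, of the synaptonemal complex, was 4.01 to 6.11 CPM in WT#20D-17 and had 0 counts in all libraries of the other lines. Mael, which guards the germline against transposons, was 7.66 CPM on day 0 and 0.472 CPM on day 14 in WT#20D-17, with 0 counts elsewhere. Rpl10l, a ribosomal protein gene of the testis, was 6.89 CPM on day 0 there, with 0 counts elsewhere. Over all 15 genes the summed level was 70.1 CPM on day 0 and 11.3 CPM at its lowest, on day 7, in WT#20D-17, and 1.22 to 5.16 CPM in the other lines.

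Prdm14, a repressor of Dnmt3b in naive pluripotent cells, was 7.79 CPM on day 0 and 0.525 CPM on day 14 in WT#20D-17 and had at most 2 counts in any library of the other lines. Lin28a was 227 to 613 CPM in WT#20D-17, at most 5.01 CPM in WT#1-4, at most 0.674 CPM in Nox4-/- #5-8 and at most 0.137 CPM in Nox4-/- #5-23. Smug1, a glycosylase of base excision repair, was higher in Nox4-/- cells with days pooled (log2 fold change 0.83, SE 0.127 from the quasi-likelihood fit, FDR 1.03e-05 by edgeR's exact test). It was 19.2 to 25.8 CPM in WT#1-4 and 15.3 to 27.9 CPM in WT#20D-17, and 39.7 to 48.4 CPM in Nox4-/- #5-8 and 41.0 to 43.5 CPM in Nox4-/- #5-23, so that the wild type and Nox4-/- libraries did not overlap. Among genes with a mean of 10 or more counts, 1.16% were higher in all Nox4-/- libraries in this way. Apobec1, a cytidine deaminase, was also higher (1.53, SE 0.283, FDR 3.46e-05), with 5.55 to 13.8 CPM in WT#1-4 and 14.9 to 45.2 CPM in the Nox4-/- lines. In that test 2 of the 22 genes of their list were higher and 0 lower, against 1.65% and 3.97% of all genes. Mtr, methionine synthase, was 38.5 to 57.8 CPM in WT#20D-17 and 69.0 to 375 CPM in the other lines. Of genes with a mean of 10 or more counts, 8.17% were likewise lower in WT#20D-17 than in all other libraries. Each was singled out by the rule for list genes or after its values were seen.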
